A study of Caenorhabditis elegans with 21 samples.

Results

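Transfer RNA genes were examined here through the small RNA reads that mapped to them in germ cells, 1-cell embryos and whole worms of the nematode Caenorhabditis elegans. All 597 rows of the deposited tRNA table were taken, with sense and antisense strands, out of 53834 rows in the small RNA tables of the series. No measured value chose the rows. Each strand of each library was scaled to its own column sum, so a row's value is its share of that library's tRNA reads. All 597 row names matched tRNA genes in the WBcel235 assembly of RefSeq, none of them mitochondrial. Chromosome X held 268 of these genes, against 76 on V, 69 on IV, 66 on I, 63 on III and 55 on II. By name, 583 rows carried a clone name with a number and 14 carried a gene name. These 14 were 7 sup genes, 5 rte genes and 2 rtw genes. Identical values in all columns joined 64 rows into 24 groups, the largest of 8 rows. No row in such a group had more than 11 reads over all libraries, so rows are described singly.

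A tRNA brings an amino acid to the ribosome and pairs its anticodon with a codon of the mRNA. Small RNA libraries rarely read a whole tRNA, because its fold and its modified bases stop reverse transcription, and they mostly hold fragments cut from mature tRNAs or from their precursors. Such fragments are abundant in the sperm of mammals and have been studied there as RNA that a father passes to the embryo. Worm tRNA genes come in near-identical copies, so a read often has several equally good origins.

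The series, by its title, concerned paternal RNA in the zygote, and 6 of its 21 libraries were small RNA libraries, with 1 library in each group. The other 15 were mRNA libraries and are not used here. All worms were labelled as grown at 24 C, and all small RNA libraries followed a polyphosphatase treatment that lets RNAs with several phosphates at the front end be cloned. Sperm came from males of the fog-2(q71) background, passed through nylon meshes and activated with Pronase. These males are not of the CB4856 strain that fathered the hybrid embryos. One library of sorted 1-cell embryos was labelled with the strain TX189(OMA-1::GFP) alone, with no father named. Its title numbers it as replicate 2 beside the hybrid library as replicate 1, but the strain fields differ and it was kept as a group of its own. The other embryo library held sorted 1-cell hybrids of fem-1(hc17ts)/TX189(OMA-1::GFP) mothers and CB4856 fathers. Oocytes were picked by mouth pipette from cut N2 hermaphrodites. Whole adult worms were either of the Hawaiian strain CB4856 or of the mothers' strain just named, and the title of the maternal-strain library reads N2. The fem-1(hc17ts) allele blocks sperm formation at the restrictive temperature, and OMA-1::GFP marks oocytes and 1-cell embryos.

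Without replicate libraries no test of a condition was possible, and no p-value is given. Intervals are exact 95% intervals of read counting. They cover counting error only, since reads without molecular identifiers are not independent molecules. The class tables (tRNA, snoRNA, snRNA, rRNA, miRNA precursors, 21U loci, exons and introns, and antisense reads of mature miRNAs) together held 2.23 to 15.3 M reads per library, called class reads here. Reads scaled to this total, in RPM, are called class RPM. Mature miRNA reads, deposited on another scale, came to 0.255 to 21.7 M. Marker RNAs bore on the labels. Of 30 major sperm protein genes, 23 had sense reads in sperm, at a summed 40.9 class RPM, against 0.196 to 18.6 in the other libraries. The miR-35 to miR-42 family of oocytes and early embryos summed to 1542 RPM of mature miRNA reads in sperm, against 206972 to 281779 in embryos and oocytes. A list of 5 miRNAs of larval and adult soma summed on the same scale to 105483 RPM in sperm, 5767 in TX189 embryos, 231 in hybrid embryos, 2104 in oocytes, 169804 in CB4856 worms, with 213485 in maternal-strain worms. All 5 were above 0 in every library. The muscle miRNA miR-1 was highest in sperm, at 19895 RPM, against 5604 in TX189 embryos, 942 in hybrid embryos, 82.3 in oocytes, 9929 in CB4856 worms, with 8186 in maternal-strain worms. The 2 neuron miRNAs were at 0 in sperm and TX189 embryos and highest in hybrid embryos, at 287 RPM. The intestine miRNA was also highest in hybrid embryos, at 2752 RPM, and at 0.817 in sperm. The 6 vitellogenin genes, listed as markers of hermaphrodite soma, summed to 57.8 class RPM in oocytes, against 5.95 in hybrid embryos. They stood at 1.11 in TX189 embryos, 6.29 in sperm, 98.6 in CB4856 worms, with 178 in maternal-strain worms. The 21U loci, listed for the germ line, summed to 49187 class RPM in sperm, 19114 in TX189 embryos, 9795 in hybrid embryos. Their sum was 13990.5 in oocytes, 132760 in CB4856 worms, with 240234 in maternal-strain worms. The part of somatic RNA in the tRNA values was not tested.

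The level of tRNA reads differed by orders of magnitude between libraries. Sense reads on tRNA rows numbered 6568.5 in sperm, 153 in TX189 embryos, 5389.5 in hybrid embryos, 1501 in oocytes, 21700.5 in CB4856 worms, with 3992 in maternal-strain worms. Counts fall in steps of 0.5 reads, as 84.7% of 2161 values above 0 were whole and 100% were whole or a multiple of 0.5, within 0.001. In class RPM this was 688 in sperm (interval 672 to 705), 9.98 in TX189 embryos (8.46 to 11.7), 1003 in hybrid embryos (976 to 1029.7), 185 in oocytes (176 to 195), 9722 in CB4856 worms (9594 to 9852), with 1599 in maternal-strain worms (1549.8 to 1649). No interval overlapped another on this scale, but the order of the libraries changed with the denominator, as given below. These levels rest on reads, with the authors' constant of each library divided out. On the deposited scale sperm was highest, with a tRNA sense sum of 12175162, against 192323 in CB4856 worms and 47596 in oocytes. In such bulk samples, fewer cells of a type and less RNA per cell cannot be told apart.

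Sperm held 3.71 times the tRNA level of oocytes in class RPM (interval 3.51 to 3.93). Small nucleolar RNAs, which guide the modification of rRNA, went the other way, at 1814 class RPM in sperm and 45741 in oocytes, 25.2 times higher in oocytes. Reads of rRNA were 2.58 times higher in sperm. Hybrid embryos held 5.41 times the tRNA reads of oocytes (5.11 to 5.73), with snoRNA reads 4.42 times higher and rRNA reads 1.96 times higher. TX189 embryos held 0.00996 times the tRNA reads of hybrid embryos (0.00842 to 0.0117), a difference of 100.4-fold. In the same pair of embryo libraries, snoRNA reads were 403-fold lower and snRNA reads 26.4-fold lower in TX189 embryos, while rRNA reads stood at 0.914 times those of hybrid embryos. CB4856 worms held 6.08 times the tRNA reads of maternal-strain worms (5.88 to 6.29), although their snoRNA reads were 0.663 times and their snRNA reads 0.541 times as high. Oocytes held 0.116 times the tRNA reads of maternal-strain worms (0.109 to 0.123). The sizes of these ratios and the order of the libraries depended on the denominator. With mature miRNA reads added, oocytes held 1.01 times the tRNA level of maternal-strain worms. Maternal-strain worms then stood at 178 RPM, below sperm at 610 and hybrid embryos at 859, and CB4856 worms stood at 907. Mature miRNA reads exceed class reads in worms and are few in oocytes. Without exons and introns in the denominator, sperm held 2.41 times the tRNA level of oocytes, hybrid embryos 1.91 times that of oocytes, TX189 embryos 0.0297 times that of hybrid embryos, CB4856 worms 8.86 times that of maternal-strain worms and oocytes 0.401 times that of maternal-strain worms. On that scale sperm, at 4144 RPM, stood above hybrid embryos, at 3289 RPM.

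**Figure D1:**
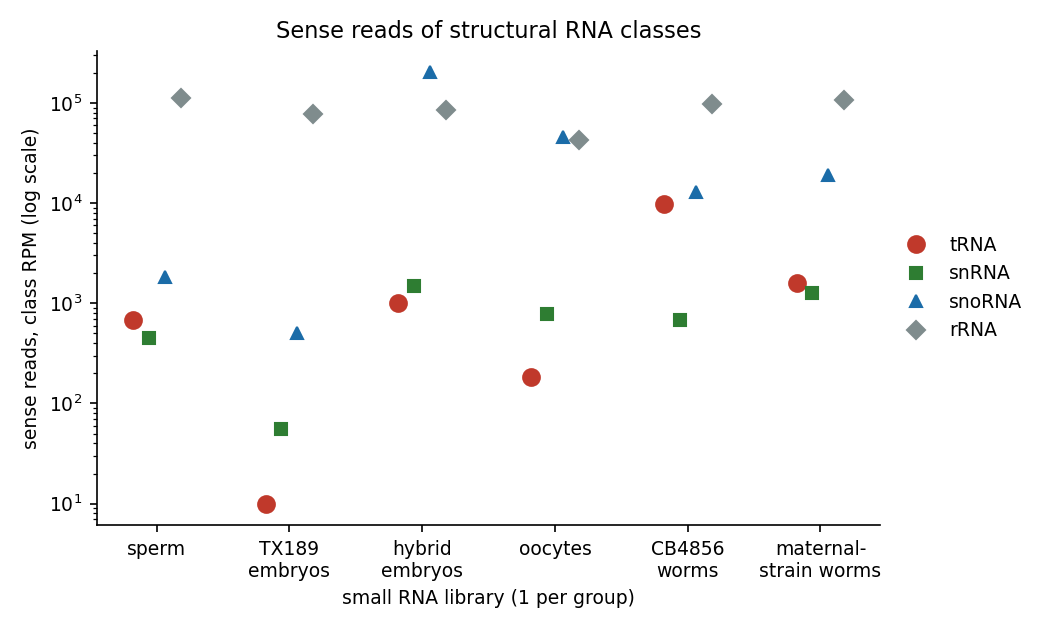
Sense reads in class RPM (log axis) of tRNA, snRNA, snoRNA and rRNA rows in the 6 small RNA libraries, 1 point per class and library. The tRNA points run from 9.98 in TX189 embryos to 9722 in CB4856 worms, while the rRNA points stay between 43096 and 111196.

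K11H12.t1 on chromosome IV, which overlaps the protein-coding gene K11H12.8 in WBcel235, led the sperm library by a wide margin. It had 3089 sense reads in sperm, 29 in TX189 embryos, 184 in hybrid embryos, 139 in oocytes, 4336 in CB4856 worms, with 378 in maternal-strain worms. Its share was 47.0% of tRNA sense reads in sperm (interval 45.8 to 48.2), 19.0% in TX189 embryos (13.1 to 26.1), 3.41% in hybrid embryos (2.95 to 3.93), 9.26% in oocytes (7.84 to 10.8), 19.98% in CB4856 worms (19.5 to 20.5), with 9.47% in maternal-strain worms (8.58 to 10.4). The next row in sperm held 3.58%. K11H12.t1 was the leading row of TX189 embryos and of both worm libraries as well. It was not the leading row in hybrid embryos or oocytes.

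ZC132.t1 on chromosome V led the hybrid embryos. It had 2.5 sense reads in sperm, 1.5 in TX189 embryos, 1108.5 in hybrid embryos, 82.5 in oocytes, 36 in CB4856 worms, with 7.5 in maternal-strain worms. Its share was 20.6% in hybrid embryos (19.5 to 21.7) and 5.50% in oocytes (4.40 to 6.77). It was 0.0381% in sperm, 0.166% in CB4856 worms, with 0.188% in maternal-strain worms, and in TX189 embryos the interval ran from 0.0706% to 4.13%. R04A9.t1 on chromosome X, overlapping hrg-11.4, led the oocytes. It had 2 sense reads in sperm, 0.5 in TX189 embryos, 159.5 in hybrid embryos, 175 in oocytes, 1.5 in CB4856 worms, with 1 in maternal-strain worms. These 2 rows were thus high in hybrid embryos and oocytes and low in sperm and in both worm libraries. R04A9.t1 took 11.7% of tRNA sense reads in oocytes (10.1 to 13.4) and 2.96% in hybrid embryos (2.52 to 3.45), against at most 0.0304% in sperm and the worms.

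K02A4.t1 on chromosome X varied least, in fold terms, of the 10 leading rows. It had 235 sense reads in sperm, 2 in TX189 embryos, 157 in hybrid embryos, 145 in oocytes, 1156 in CB4856 worms, with 126 in maternal-strain worms. Its share lay between 1.31% in TX189 embryos and 9.66% in oocytes. W03C9.t1 on chromosome II had 8.98% in CB4856 worms (8.60 to 9.37) and 7.19% in TX189 embryos (3.64 to 12.5), and 0.742% to 2.50% in the other 4 libraries. F45G2.t1 on chromosome III, overlapping the myosin gene myo-6, had 7.39% in CB4856 worms, with 0.476% in maternal-strain worms, with 3.13% in oocytes. The last 4 of the 10 had their highest shares in worms. C38C6.t1, Y54G2A.t2 and F42G10.t1 held 7.11%, 7.88% and 6.24% of the reads in maternal-strain worms, and 1 to 3.5 reads each in sperm. C38C6.t1 and F42G10.t1 were not limited to worms, since C38C6.t1 held 2.06% in hybrid embryos and F42G10.t1 held 1.60% in oocytes. Y54G2A.t2 had at most 6.5 reads in any germ cell or embryo library. In CB4856 worms, C38C6.t1, Y54G2A.t2 and F42G10.t1 held 1.16%, 0.917% and 1.43%. T06H11.t3, overlapping the potassium channel gene unc-58, had 4.49% in CB4856 worms, with 3.21% in maternal-strain worms. It had no read in oocytes, where the interval of a count of 0 reaches 0.245%, and at most 3 reads in sperm and either embryo library.

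**Figure D2:**
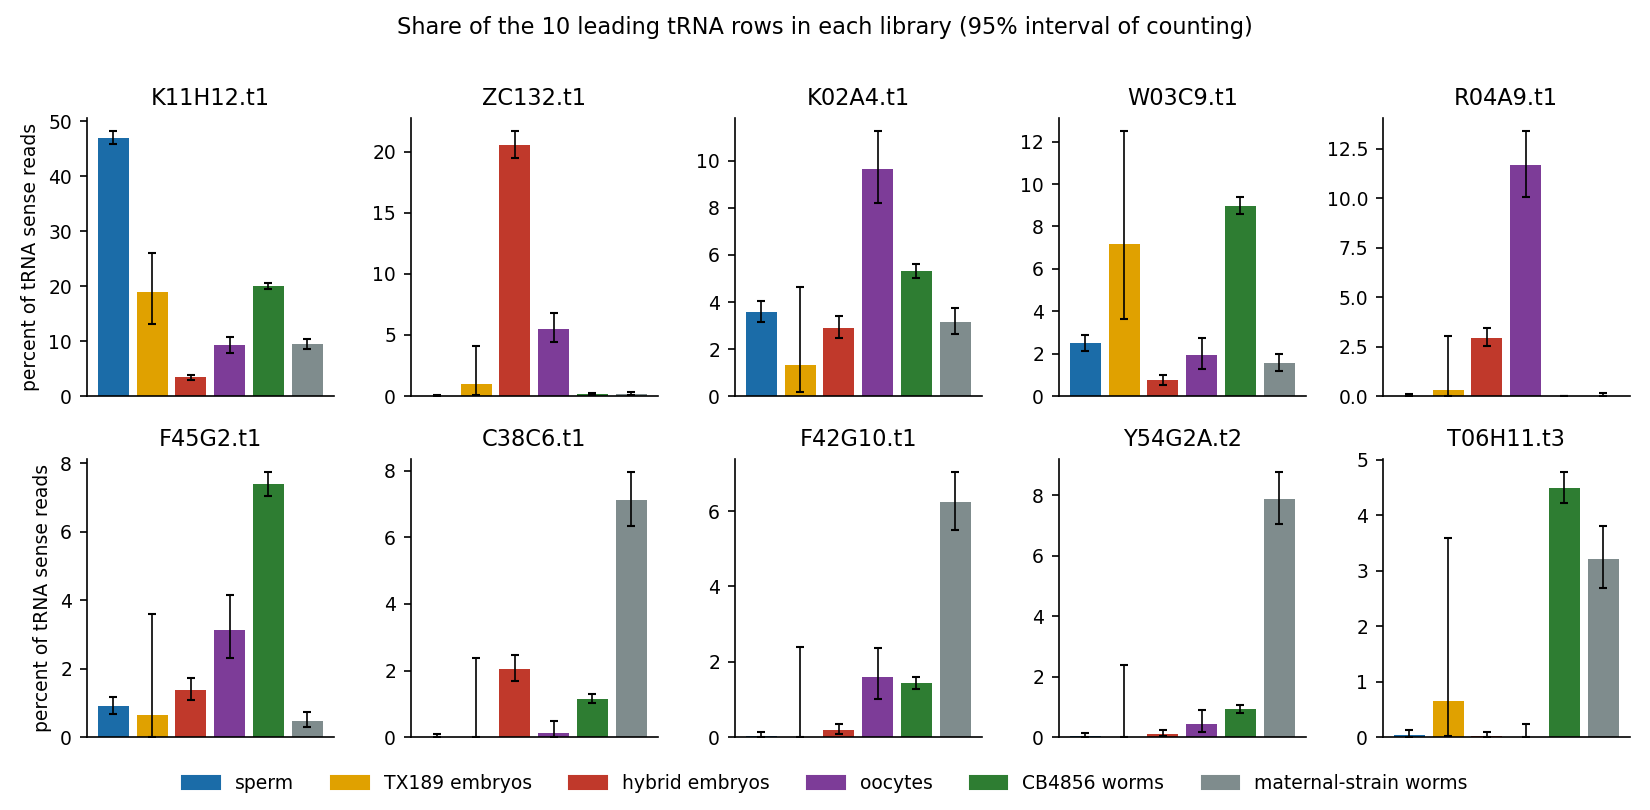
Share of tRNA sense reads (percent, linear axes that differ by panel) of the 10 rows with the highest mean share over the 6 libraries. Bars are single libraries and whiskers exact 95% counting intervals; K11H12.t1 stands at 47.0% in sperm and ZC132.t1 at 20.6% in hybrid embryos.

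Sperm was unlike the other libraries in how its reads were spread over rows. The first 2 rows covered 50% of the sperm reads, but 145 rows were needed for 90%. The matching counts were 12 and 65 rows in TX189 embryos, 12 and 96 in hybrid embryos, 8 and 86 in oocytes, 7 and 88 in CB4856 worms and 11 and 114 in maternal-strain worms. Without K11H12.t1, 50% of the sperm reads took 45 rows, against 18 in TX189 embryos, 12 in hybrid embryos, 9 in oocytes, 10 in CB4856 worms, with 13 in maternal-strain worms. Sperm thus combined 1 dominant row with a long, even tail. Only 5 sperm rows reached 50 reads, although 405 rows had reads, with a median of 4. Hybrid embryos had 21 rows with 50 reads among 353, oocytes 7 among 216, CB4856 worms 45 among 513 and maternal-strain worms 15 among 374. The 86 rows seen in TX189 embryos had a median of 1 read. If the other libraries were thinned to the 153 reads of TX189 embryos, 61.7 rows would be seen on average in sperm, 64.2 in hybrid embryos, 59.2 in oocytes, 54.4 in CB4856 worms, with 65.5 in maternal-strain worms. These estimates used counts rounded to whole reads, so rows at 0.5 reads dropped out. The 86 rows of TX189 embryos include such rows, so they cannot be set directly against the estimates. Over all libraries together, 569 rows had a sense read, 26 had one in each of the 6, 55 had one in exactly 1 library, and 27 rows had no read on either strand.

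**Figure D3:**
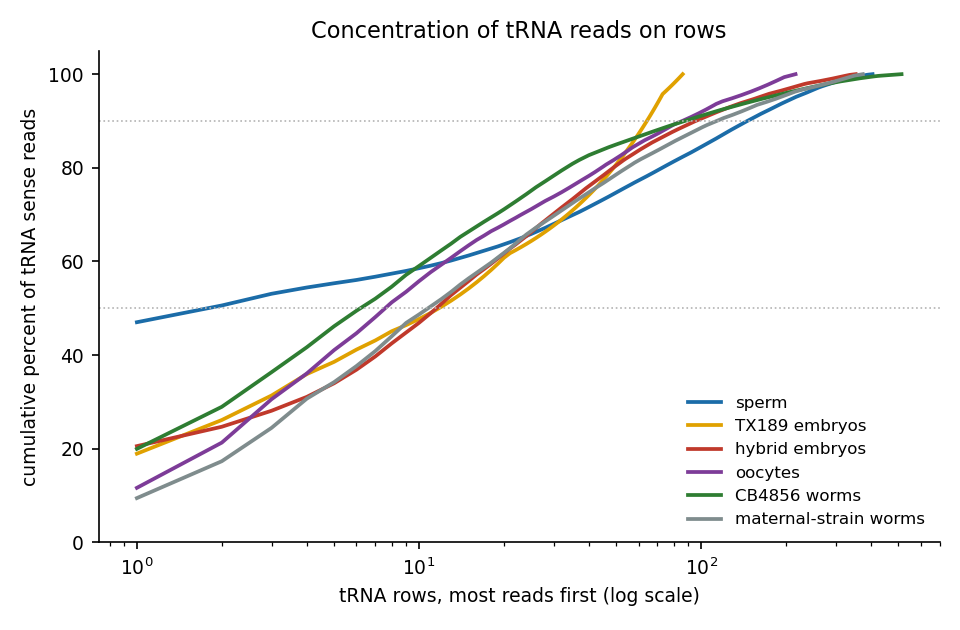
Cumulative percent of tRNA sense reads against the number of rows taken, from the row with most reads (log axis), 1 line per library. Dotted lines mark 50% and 90%; the sperm line starts at 47.0% with its first row and crosses 90% last, at 146 single rows (145 with identical rows merged, as in the text).

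For each pair of libraries, rows with at least 50 reads in the higher library were compared by their share. A row was called higher or lower when the ratio of shares was at least 2-fold. A row at 0 was set to 3 reads of that library, and was called only on the side that this limit allows. The same minimum is a different share in each library, since 50 reads are 0.230% of the reads of CB4856 worms, 0.761% in sperm, 0.928% in hybrid embryos, 1.25% in maternal-strain worms, 3.33% in oocytes and 32.7% in TX189 embryos. Many rows therefore entered only through the library where they were high, and had to differ. Counts of higher and lower rows are given as a description of those rows, with the counts at a minimum of 10 reads beside them, and the balance between them is not a result. Several comparisons share a library (oocytes enter 3 of the 5), so their values are given side by side only. No row had 50 reads in all 6 libraries, so no row was ranked by likeness to K11H12.t1.

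The sperm and oocyte libraries come from other strains than the parents of the hybrid embryos. Their first rows were K11H12.t1 and R04A9.t1, and they shared 5 of their 20 leading rows. K11H12.t1 and K02A4.t1, at 47.0% and 3.58% in sperm, also held 9.26% and 9.66% in oocytes. Of 10 rows compared, 2 (20%) were higher in sperm and 7 (70%) lower, with a median log2 ratio of sperm over oocytes of -2.45. Of the 7 lower rows, 5 had reached the minimum in oocytes alone. At a minimum of 10 reads the balance turned, with 39 rows higher and 26 lower of 115 and a median log2 ratio of 0.37. Over all sense features of the class tables, on the scale of class reads, 58.4% of 2772 were higher in sperm and 30% lower. K11H12.t1 was higher in sperm, at 5.08 times its oocyte share (interval 4.28 to 6.06). DY3.t2 on chromosome I had 88 reads in sperm and 0 in oocytes, 6.70-fold higher at the floor of 3 reads, with an interval from 5.34-fold. R04A9.t1 had 2 reads in sperm and 175 in oocytes, a ratio of 0.00261 (0.000314 to 0.00958), and ZC132.t1 had 2.5 and 82.5, a ratio of 0.00692 (0.00113 to 0.0229). F56F4.t2, overlapping the peptide transporter gene pept-3, had 6 reads in sperm and 52 in oocytes, 37.9-fold lower in sperm. F47E1.t2 had 7 and 54, 33.8-fold lower. F38E9.t2, F45G2.t1 and K02A4.t1 were 8.64, 3.46 and 2.70-fold lower in sperm. W03C9.t1, with 164 reads in sperm and 29 in oocytes, did not pass the fold, at a ratio of 1.29 (0.867 to 1.99).

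These shares are relative, and sperm held more tRNA reads in all. In class RPM, 3 of the 10 rows were higher in sperm and 5 lower, with a median log2 ratio of -0.56. K11H12.t1 was then 18.9 times higher in sperm, and R04A9.t1 still stood at 0.0097 times its oocyte level. With the leading row of either library left out of the column sums, 3 rows were higher and 6 lower. With the median ratio of rows holding at least 50 reads in both libraries set to 1, 1 was higher and 8 lower.

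Hybrid embryos and oocytes shared 10 of their 20 leading rows, the second largest overlap among the 15 pairs of libraries. Of 23 rows compared, 12 (52.2%) were higher in hybrid embryos and 8 (34.8%) lower, with a median log2 ratio of 1.05. Of the 12 higher rows, 11 had reached the minimum in hybrid embryos alone. At a minimum of 10 reads, 36 rows were higher and 13 lower of 77, with a median log2 ratio of 0.83. Over all sense features, 50.3% of 2163 were higher in hybrid embryos and 19% lower, on the scale of class reads and so not on that of the shares. F42D1.t1 had 102 reads in hybrid embryos and 1 in oocytes, a ratio of 28.4 (4.99 to 1133). B0285.t1, overlapping the gene mnp-1, had 223 and 4 reads, a ratio of 15.5 (5.98 to 57.5). C38C6.t1 had 111 and 2 reads, and F54F7.t1 had 58 and 1, with ratios of 15.5 (4.18 to 129) and 16.2 (2.79 to 649). F56F4.t1 and F56F4.t2, both overlapping pept-3, differed from each other. F56F4.t1 had 125 reads in hybrid embryos and none in oocytes, 11.6-fold higher at the floor of 3 reads, with an interval from 9.30-fold. F56F4.t2 had 48 and 52, 3.89-fold lower. ZC132.t1 was 3.74 times higher in hybrid embryos. Lower in hybrid embryos were R04A9.t1 (3.94-fold), F47E1.t2 (7.46-fold), K02A4.t1 (3.32-fold) and K11H12.t1 (2.71-fold). None of the 8 lower rows was called lower in class RPM, where 18 of 23 rows were called higher and 0 lower, with a median log2 ratio of 3.49. F47E1.t2 still stood at 0.726 times its oocyte level, short of the 2-fold limit. With the median ratio of rows with at least 50 reads in both libraries set to 1, 15 were higher and 1 lower.

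TX189 embryos against hybrid embryos rest on 153 reads. All 21 rows compared had reached the minimum in hybrid embryos alone, and 1 (4.76%) was higher in TX189 embryos and 8 (38.1%) lower. Since many of these rows were at 0 in TX189 embryos and set to 3 reads, no median is given. At a minimum of 10 reads, 6 rows were higher and 8 lower of 76. The interval lay wholly past the fold for 2 rows. Over all sense features, 40.1% of 4046 were higher in TX189 embryos and 24.6% lower, on the scale of class reads. Those 2 rows were K11H12.t1, with 29 reads in TX189 embryos and 184 in hybrid embryos, at 5.55 times the hybrid share (3.62 to 8.24), and ZC132.t1, with 1.5 and 1108.5 reads, at 0.0477 times (0.00343 to 0.204). At the share of hybrid embryos, 153 reads would hold 31.5 reads of ZC132.t1 and 5.22 of K11H12.t1. R04A9.t1, D1009.t1, F22B7.t1 and F38E9.t2 had 0.5 to 1 reads in TX189 embryos and 107 to 159.5 in hybrid embryos, and the intervals of their ratios reached above 1. C44B7.t1, F02E11.t1, F54F7.t1 and K02E11.t1 had no read in TX189 embryos and 57 to 61 in hybrid embryos. At this depth a difference was not detectable for them, since the interval of a count of 0 reaches a share of 2.38%. Among rows singled out after their values were seen, F59C12.t1 had 8 reads in TX189 embryos and 3 in hybrid embryos, and C18A11.t1 had 7 in each. At the hybrid share, 153 reads would hold 0.0852 and 0.199 of these. In class RPM, 0 rows were higher in TX189 embryos and 21 lower, K11H12.t1 among them.

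CB4856 worms and maternal-strain worms shared 11 of their 20 leading rows, the most of the 15 pairs. Of 48 rows compared, 23 (47.9%) were higher in CB4856 worms and 10 (20.8%) lower, with a median log2 ratio of 0.86. Of the 23 higher rows, 21 had reached the minimum in CB4856 worms alone. At a minimum of 10 reads, 44 rows were higher and 44 lower of 162, and the median log2 ratio turned to -0.12. Over all sense features, 15.5% of 1915 were higher in CB4856 worms and 38.7% lower, on the scale of class reads. F45G2.t1 had 1603.5 reads in CB4856 worms, with 19 in maternal-strain worms, a ratio of 15.5 (9.91 to 25.9). M03A1.t2 had 184 and 2 reads, a ratio of 16.9 (4.62 to 141), and F15A8.t2 had 343 and 4, a ratio of 15.8 (6.11 to 58.2). F37A4.t1 had 160.5 and 2.5 reads, 11.8 times higher in CB4856 worms. F47G6.t1, overlapping the sperm gene spe-15, had 57 and 1, with an interval of 1.81 to 421. Lower in CB4856 worms were C16H3.t2 (18 and 63 reads, 19.0-fold), B0285.t1 (35 and 114, 17.7-fold), ZK678.t1 (38 and 68, 9.73-fold), Y54G2A.t2 (199 and 314.5, 8.59-fold) and C34E11.t1 (109 and 141, 7.03-fold). In class RPM, 39 rows were higher in CB4856 worms and 2 lower, with a median log2 ratio of 3.46. Even on that scale, C16H3.t2 and B0285.t1 stayed lower, at 0.320 and 0.343 times the maternal-strain level.

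Oocytes against maternal-strain worms compare a cell type with a whole body that holds it, in different strains. Of 20 rows compared, 6 (30%) were higher in oocytes and 11 (55%) lower, with a median log2 ratio of -1.52. All 11 lower rows had reached the minimum in maternal-strain worms alone. At a minimum of 10 reads, 16 rows were higher and 35 lower of 68, with a median log2 ratio of -1.04. Over all sense features, 28.2% of 2473 were higher in oocytes and 61.4% lower, on the scale of class reads. R04A9.t1 had 175 reads in oocytes and 1 in maternal-strain worms, a ratio of 465 (82.4 to 18487). F38E9.t2, overlapping the astacin protease gene nas-39, had 75 and 3 reads, a ratio of 66.5 (21.9 to 330). F47E1.t2 had 54 and 3, a ratio of 47.9 (15.5 to 239). ZC132.t1 was 29.3 times and F56F4.t2 7.68 times higher in oocytes. Lower in oocytes were C38C6.t1 (2 and 284 reads, 53.4-fold), Y69A2AR.t2 (1 and 137, 51.5-fold), Y54G2A.t2 (6.5 and 314.5, 18.2-fold) and B0285.t1 (4 and 114, 10.7-fold). T06H11.t3, with 0 reads in oocytes and 128 in maternal-strain worms, was 16.0-fold lower at the floor of 3 reads, with an interval from 12.9-fold. K11H12.t1 stood at 0.978 times (0.799 to 1.19). In class RPM, 4 rows were higher in oocytes and 15 lower, with a median log2 ratio of -4.63, and F38E9.t2, F47E1.t2, R04A9.t1 and ZC132.t1 were still 3.39 to 53.9 times higher in oocytes. This median depended on leaving mature miRNA reads out of the total. With them added, 6 rows were higher and 11 lower, with a median log2 ratio of -1.51.

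**Figure D4:**
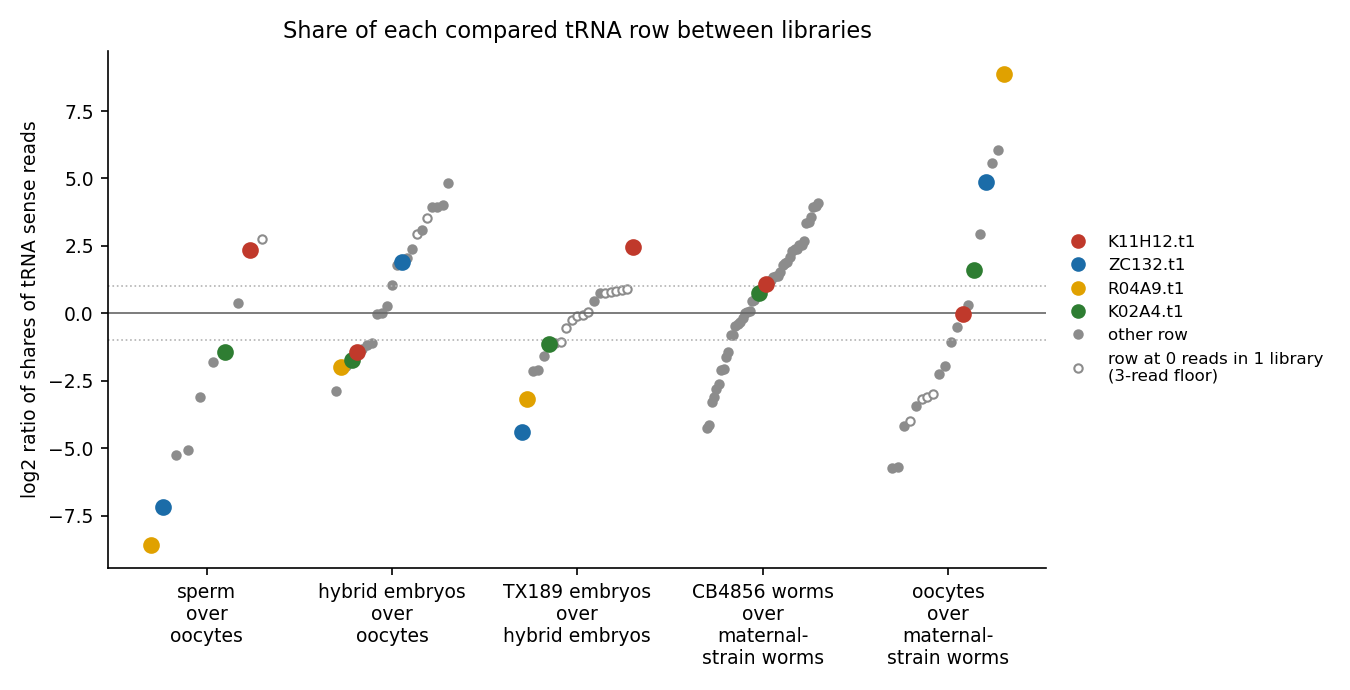
Log2 ratio of each compared row's share of tRNA sense reads in the 5 pairs of libraries, rows ordered by ratio within a pair; dotted lines mark the 2-fold limits and open points rows at 0 reads in 1 library, set to 3 reads. R04A9.t1 and ZC132.t1 lie lowest in sperm over oocytes, and R04A9.t1 lies highest in oocytes over maternal-strain worms.

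Among the named genes, values were low. The sup genes are known from suppressor mutations, and sup-5 and sup-7 encode tryptophan tRNAs whose mutants read through amber stop codons. The 7 sup rows had 2 to 10 sense reads each in sperm, 0 to 1 in TX189 embryos, 1 to 3 in hybrid embryos, 5 to 9 in oocytes, 1 to 45 in CB4856 worms and 0 to 8 in maternal-strain worms. Together they took 0.776% of tRNA reads in sperm and 2.86% in oocytes, a ratio of 0.271 (0.177 to 0.417). In class RPM the difference was gone, at 5.34 in sperm and 5.31 in oocytes, a ratio of 1.01 (0.658 to 1.55). By share, the sup rows took 0.241% in hybrid embryos and 0.276% in maternal-strain worms, whose intervals lay below that of oocytes. In class RPM, oocytes stood at 1.20 times maternal-strain worms (0.611 to 2.59), which did not exclude 1. Hybrid embryos stood at 0.456 times oocytes on that scale (0.225 to 0.863). The high value in CB4856 worms was sup-33 alone, with 45 of the 60 reads. The 5 rte rows had 6 to 9 reads each in sperm and 37 in all. In oocytes they had 3 reads, all on rte-3, and the ratio of sperm over oocytes was 2.82 (0.892 to 14.3), which did not exclude 1. In class RPM it was 10.5 (3.31 to 53.1). The 2 rtw rows had 13 reads in sperm and 7 in oocytes, with a ratio of 0.424 (0.157 to 1.26) by share and 1.58 (0.585 to 4.67) in class RPM.

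By chromosome, the distribution followed the leading rows. Chromosome IV, with 11.6% of the rows, held 51.2% of tRNA sense reads in sperm, of which K11H12.t1 made up 91.9%. Without that row chromosome IV held 7.83% in sperm. Chromosome V held 31.1% of reads in hybrid embryos, of which ZC132.t1 made up 66.2%, and 13.1% in oocytes. Chromosome X, with 44.9% of the rows, held 24.0% of reads in sperm (22.9 to 25.0), 40.5% in TX189 embryos (32.7 to 48.7), 34.2% in hybrid embryos (33.0 to 35.5), 51.8% in oocytes (49.2 to 54.4), 31.9% in CB4856 worms (31.3 to 32.5), with 42.7% in maternal-strain worms (41.2 to 44.3). Sperm was thus lowest on X, but without K11H12.t1 the sperm value was 45.2%, close to the share of rows. The other values without this row were 50% in TX189 embryos, 35.5% in hybrid embryos, 57.1% in oocytes, 39.8% in CB4856 worms, with 47.2% in maternal-strain worms. In WBcel235, 287 of the 597 tRNA genes (48.1%) overlap a protein-coding gene. These rows held 69.5% of tRNA sense reads in sperm, 52.0% in TX189 embryos, 40.3% in hybrid embryos, 52.7% in oocytes, 63.6% in CB4856 worms, with 61.0% in maternal-strain worms. Without K11H12.t1 the sperm value was 42.5%.

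Antisense reads on tRNA genes were few but had their own pattern. They numbered 78 in sperm, 128 in TX189 embryos, 136 in hybrid embryos, 75 in oocytes, 38.5 in CB4856 worms, with 57 in maternal-strain worms. Of all tRNA reads they made up 1.17% in sperm (0.929 to 1.46), 45.6% in TX189 embryos (39.6 to 51.6), 2.46% in hybrid embryos (2.07 to 2.90), 4.76% in oocytes (3.76 to 5.93), 0.177% in CB4856 worms (0.126 to 0.243), with 1.41% in maternal-strain worms (1.07 to 1.82). The high share in TX189 embryos came with few sense reads. In class RPM, antisense reads stood at 8.35 in TX189 embryos, next to 8.17 in sperm and 9.26 in oocytes, with 25.3 in hybrid embryos, 17.2 in CB4856 worms, with 22.8 in maternal-strain worms.

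ZK822.t1 on chromosome IV carried 83 of the 136 antisense reads in hybrid embryos, 61.0% (52.3 to 69.3). It had 0 antisense reads in sperm, 2 in TX189 embryos, 8 in oocytes and 0 in both worm libraries. Its sense reads were 41 in hybrid embryos, and 40 in maternal-strain worms without any antisense read. Sperm and TX189 embryos had the same leading antisense row. M03A1.t2 had 19 antisense reads in sperm, 31 in TX189 embryos, 0 in hybrid embryos, 1 in oocytes and 0 in both worm libraries. That is 24.4% of antisense reads in sperm (15.3 to 35.4) and 24.2% in TX189 embryos (17.1 to 32.6), or 1.99 and 2.02 class RPM. Y73F8A.t1 had 16.5 antisense reads in sperm, 27.5 in TX189 embryos, 1 in hybrid embryos, 1 in oocytes, 0 in CB4856 worms, with 0.5 in maternal-strain worms, with shares of 21.2% in sperm and 21.5% in TX189 embryos. C16H3.t1 had 5 and 16 and F10C1.t1 had 5 and 10.5 antisense reads in sperm and TX189 embryos. These last rows were not limited to sperm and TX189 embryos. F10C1.t1 had 6 antisense reads in oocytes, and C16H3.t1 had 5 in maternal-strain worms, at or above the sperm counts. None of these 4 rows had a sense read in TX189 embryos, while sperm had 43 sense reads on M03A1.t2, 9.5 on Y73F8A.t1, 19 on C16H3.t1 and 1.5 on F10C1.t1. None of the 5 rows overlaps a protein-coding gene in WBcel235.

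**Figure D5:**
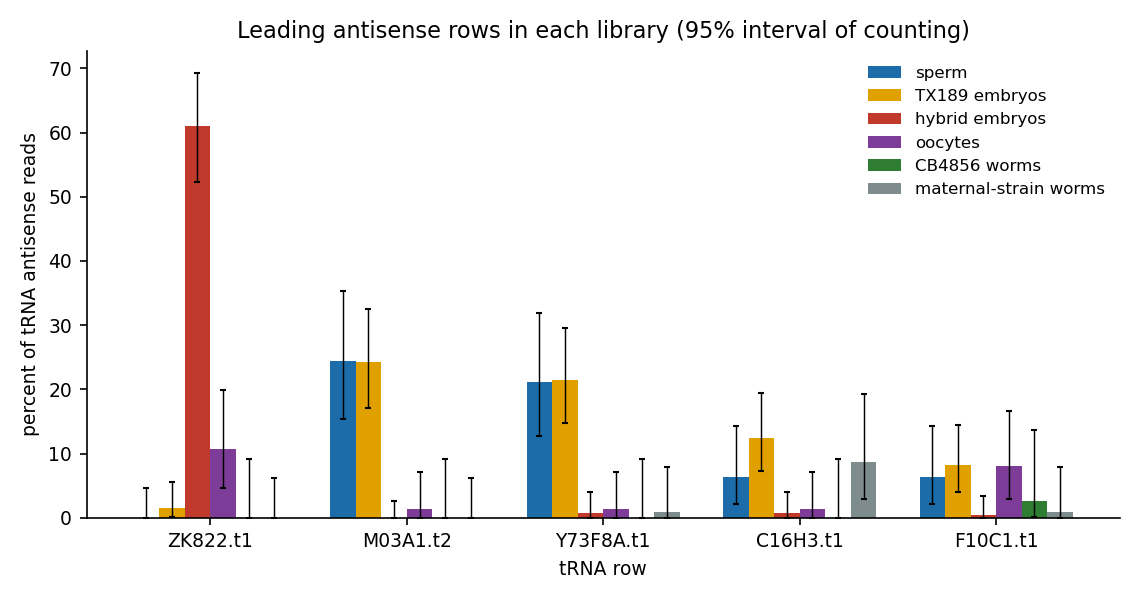
Share of tRNA antisense reads (percent) of the 5 rows with the highest mean antisense share, by library; whiskers are exact 95% counting intervals. ZK822.t1 stands at 61.0% in hybrid embryos, and M03A1.t2 and Y73F8A.t1 stand at 21.2% to 24.4% in sperm and TX189 embryos.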

How the data were processed

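The members and the lists of markers were chosen with earlier results of these data known. Reads were aligned with BWA, per the submitters' processing notes, which are credited for the name only. Its version, the genome build, the treatment of reads with several origins and the use of strand are not given in the sources used here. The deposited class tables hold a signal for each feature and strand, which the values show to be the authors' read counts multiplied by 1 constant per library, and NA where no read is listed. For mature miRNAs, sense values were deposited by the authors as RPM of all such reads in the library, which the column sums show. Sperm and embryo columns carry their samples' names, and the oocyte and worm columns were assigned by excluding every other label. All 9 small RNA tables have 8 further columns that no label names, which were left out.

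The signal was divided by the most frequent value of the 21U sense column, taken as 1 read. The exon and intron tables repeat 555 and 531 lines word for word, and each was counted once. Class reads are the sum over the class tables without mature miRNA sense reads. Shares have exact Clopper-Pearson intervals and ratios exact conditional binomial intervals, at 95%. Ratios were formed for rows with at least 50 reads in the higher library and called at 2-fold, with a floor of 3 reads per library for a row at 0. With 1 library per group there is no replicate check. The comparison step was tested on simulated reads, with planted changes well above 2-fold and counting error only. It was not tested for calls near 2-fold or for differences between replicate libraries. For TX189 over hybrid embryos that test set no requirement on how many changed rows were found, because of the low depth. Named are the 10 rows with the highest mean sense share, the 5 with the highest mean antisense share, and the 5 largest and 5 smallest ratios of each comparison. The planned grouping by isotype was not made, because no isotype or anticodon is given for these rows in the sources used here. Names, chromosomes and overlaps come from RefSeq's WBcel235 table. An overlap was counted on either strand, and whether a tRNA gene lay wholly inside the other gene was not tested. Python 3.11.15, numpy 2.4.6, pandas 2.3.3, scipy 1.17.1 and matplotlib 3.10.9 were used.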

Additional observations from a re-analysis of the deposited data

How the results depend on the processing

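No paired analysis was possible because each small RNA group has 1 library, and no replicate was left out for the same reason. Of 130 alternatives for counts and levels, 77 left the value within its limit (1.5 times for a count, the counting interval for a level) and 53 moved it. Of 399 for single rows, 313 left the value within its interval, 72 moved it and 14 turned its direction. Leaving out a leading row and adding mature miRNA reads were chosen after the data were seen. Scaling to an isotype-free column sum was not run, and median-ratio scaling gave no value for TX189 embryos over hybrid embryos, where no row has 50 reads in both.

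Scaling to class reads gave 0 lower rows in hybrid embryos over oocytes, 0 higher and 21 lower in TX189 over hybrid embryos, and 39 higher and 2 lower in CB4856 over maternal-strain worms. With mature miRNA reads added, these were 0 lower, 0 higher and 21 lower, and 38 higher and 2 lower. On class reads the log2 ratio turned to 0.10 for F45G2.t1 and 0.46 for K02A4.t1 in sperm over oocytes, to 0.46 for R04A9.t1, 0.48 for F56F4.t2, 0.71 for K02A4.t1 and 1.00 for K11H12.t1 in hybrid embryos over oocytes, to -4.18 for K11H12.t1 in TX189 over hybrid embryos, and to -0.17 for F56F4.t2 in oocytes over maternal-strain worms. With mature miRNA reads it turned to 0.33 for K02A4.t1 in sperm over oocytes, to 0.28 for R04A9.t1, 0.30 for F56F4.t2, 0.53 for K02A4.t1 and 0.82 for K11H12.t1 in hybrid embryos over oocytes, and to -4.00 for K11H12.t1 in TX189 over hybrid embryos. These scalings carry the unequal tRNA totals into each row. Median-ratio scaling left 1 higher row in sperm over oocytes and 1 lower in hybrid embryos over oocytes.

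A minimum of 10 reads gave 39 higher and 26 lower rows in sperm over oocytes, 36 and 13 in hybrid embryos over oocytes, 6 higher in TX189 over hybrid embryos, 44 and 44 in CB4856 over maternal-strain worms, and 16 and 35 in oocytes over maternal-strain worms. A minimum of 200 gave 1 and 1, 2 and 0, 0 and 2, 11 and 3, and 0 and 3 in the same order of comparisons. The minimum changed the balance as well as the number of rows, since it is a different share of each library, and the median log2 ratio turned to 0.37 in sperm over oocytes and to -0.12 in CB4856 over maternal-strain worms at a minimum of 10. A fold of 4 left 1 lower row in hybrid embryos over oocytes, 4 lower in TX189 over hybrid embryos and 13 higher in CB4856 over maternal-strain worms. Adding 0.5 reads to every row gave 16 lower rows in TX189 over hybrid embryos, as rows at 0 then lose their bound.

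The tRNA level in RPM of class reads without rRNA was 776 in sperm, 1096 in hybrid embryos, 10779 in CB4856 worms, with 1791 in maternal-strain worms. Without exons and introns it was 4144 in sperm, 97.6 in TX189 embryos, 3289 in hybrid embryos, 1719 in oocytes, 37920 in CB4856 worms, with 4282 in maternal-strain worms. With mature miRNA reads it was 610 in sperm, 859 in hybrid embryos, 907 in CB4856 worms, with 178 in maternal-strain worms. Without the row with most antisense reads, the antisense share was 0.896% in sperm, 38.8% in TX189 embryos and 0.981% in hybrid embryos. Without K11H12.t1, 50% of sperm reads took 45 rows. Depth limits TX189 embryos most, where 1 read is 0.654% of the tRNA sense reads.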
